A study of Homo sapiens with 4 samples.

Results

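Chemokines that draw neutrophils and monocytes were followed in cells with lowered PAK1 mRNA. The 8 genes are CXCL1, CXCL2, CXCL3, CXCL5, CXCL6, IL8 (now named CXCL8), CCL2 and CCL20. They were taken by name from the array annotation, without a cutoff on their values, but with earlier results of these data known. They are read by 10 of the 34127 probes, or 19 of the 43118 non-control spots of each array, out of 27193 gene names. RNA came from MCF10A.B2 cells, a line made from the non-tumorigenic human breast epithelial line MCF10A by adding a Her2 (ErbB2) receptor that a drug can switch on. Of the 4 arrays 2 held RNA of control cells of this line. The other 2 held RNA of MCF10A.B2 cells with a stable, tetracycline-inducible short hairpin RNA (shRNA) against PAK1, a serine-threonine kinase that acts downstream of the GTPases Cdc42 and Rac. Cells of both groups had been serum starved for 3 h and then given AP1510, the dimerizer that activates the receptor, for 15 min, so that no comparison with resting cells is possible here. All 4 arrays lay on 1 slide. The labels do not say whether the control cells are parental or carry the shRNA without its induction. Arrays of cells with a non-targeting shRNA were not analysed here, and an effect of carrying any shRNA cannot be told apart from that of the PAK1 shRNA. The sources do not say whether the arrays of a group came from separate cultures, so the p-values measure only the spread between these arrays, which may be technical.

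Chemokines are small secreted proteins that guide leukocytes along a gradient through receptors coupled to G proteins. CXCL1, CXCL2, CXCL3, CXCL5, CXCL6 and IL8 carry a Glu-Leu-Arg motif before their first cysteines and act on CXCR2, and IL8 and CXCL6 also on CXCR1, the receptors by which neutrophils leave the blood. CCL2 acts on CCR2 of monocytes, and CCL20 on CCR6, which is found on immature dendritic cells and subsets of lymphocytes. In epithelial cells most of these genes are induced by interleukin 1, tumor necrosis factor and microbial products through NF-kB, and their mRNAs are short lived.

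PAK1, the target of the shRNA, was lower in the shRNA cells than in control cells. It stood at 11.19 and 11.27 in control cells against 10.44 and 10.52 in shRNA cells, in log2 units of the background-corrected and quantile-normalized signal, the scale of every level given here. The difference was -0.75 (SE 0.076, adjusted p = 0.00018 by limma), which leaves 0.595 of the control level. Between 78.9% and 83.2% of the probes were well above background on each array, and no spot of the 8 chemokines was saturated or marked as an outlier. Of 22001 genes tested, 62.9% passed an adjusted p of 0.05, 31% of all being higher and 31.9% lower in shRNA cells, so that a passed test alone sets no gene apart from the rest. Against that background 6 of the 8 chemokines were higher in shRNA cells (CXCL1, CXCL2, CXCL3, IL8, CCL2 and CCL20), CXCL5 did not pass, and CXCL6 could not be tested because no array measured it above background. An increase of at least 2-fold, which 8.85% of all genes reached, was found for CXCL1, CXCL2, CXCL3, IL8 and CCL20. IL8 was tested only because the shRNA arrays measured it, so it could enter in no other direction than higher. In RNA from whole cultures, more cells that express a gene and more RNA per cell cannot be told apart.

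**Figure D1:**
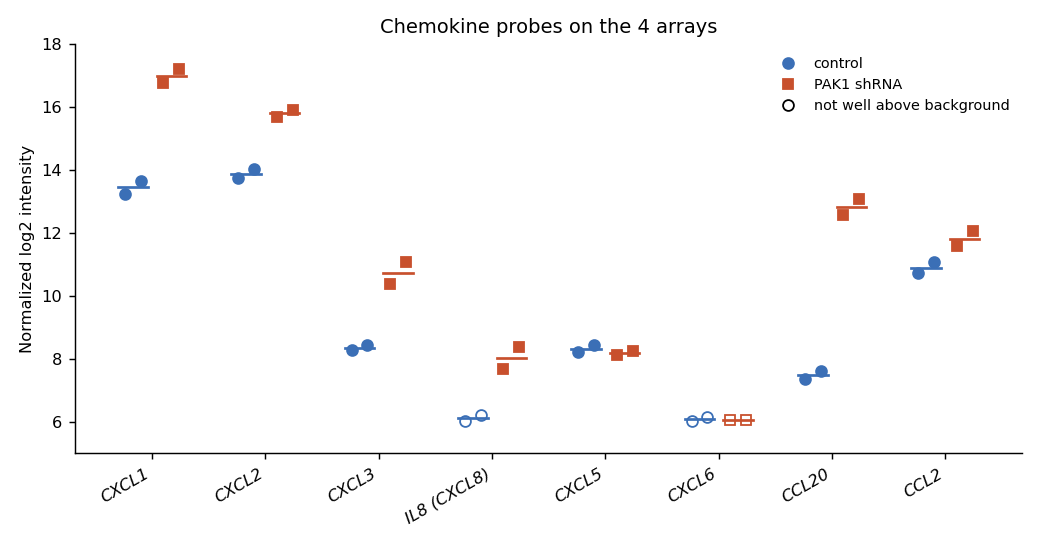
Normalized log2 signal (vertical axis) of each chemokine on each array. Each point is the value of 1 array, control or PAK1 shRNA, lines are group means, and open symbols mark values not well above background. For CXCL1, CXCL2, CXCL3, IL8, CCL2 and CCL20 both shRNA arrays lie above both control arrays, whereas the groups overlap for CXCL5. The former held for 42.1% of all genes tested, and IL8 could enter in no other direction.

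CXCL1, CXCL2 and CXCL3, the closely related GRO chemokines, rose together. CXCL1 was at 13.24 and 13.65 in control and at 16.75 and 17.21 in shRNA cells. The difference was 3.54 (SE 0.187, 95% interval 3.09 to 3.99), an 11.6-fold increase (adjusted p = 1.1e-05 by limma). CXCL2 was at 13.76 and 14.02 in control and at 15.68 and 15.92 in shRNA cells. It gained 1.91 (SE 0.12, 95% interval 1.62 to 2.20), or 3.77-fold, with an adjusted p of 2.1e-05. CXCL3 was at 8.29 and 8.43 in control and at 10.38 and 11.08 in shRNA cells. The gap between the shRNA arrays, 0.70, was wide for this gene, but still well short of the difference of 2.37 between groups (SE 0.211, 95% interval 1.86 to 2.88), a 5.18-fold increase with an adjusted p of 9.8e-05. For each of the GRO genes the lower shRNA array stood above the higher control array, as it did for 42.1% of the genes tested. In control cells the raw signals were 12687 and 13346 for CXCL1 and 17888 and 17245 for CXCL2. These lie far over the local background of 46 to 47, so both were already detected in control cells.

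CXCL1 and CXCL2 were each read by a second probe. The second CXCL1 probe gave 10.97 and 11.36 in control and 14.54 and 15.02 in shRNA cells, a difference of 3.62 (SE 0.183) beside the 3.54 of the first. The second CXCL2 probe gave 12.13 and 12.38 against 14.60 and 14.98, a difference of 2.53 (SE 0.142), or 5.78-fold, where the first had 3.77-fold. The annotation lists a CXCL3 transcript for this second CXCL2 probe as well as that of CXCL2, so it may read both mRNAs, and the value of CXCL2 rests on its first probe. The second probes of CXCL1 (chr4:74735646-74735705, hg19, plus strand) and CXCL2 (chr4:74964342-74964401, hg19, minus strand) show how alike these transcripts are. They overlap over 37 bases, of which 32 (86.5%) are identical, as capitals mark:
CXCL1 second probe: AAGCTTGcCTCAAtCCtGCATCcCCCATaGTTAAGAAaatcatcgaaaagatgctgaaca
CXCL2 second probe: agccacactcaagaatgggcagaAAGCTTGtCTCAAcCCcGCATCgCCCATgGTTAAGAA
The first probes lie at chr4:74736850-74736909 for CXCL1 and, on the minus strand, at chr4:74962985-74963044 for CXCL2 and chr4:74902702-74902761 for CXCL3 (hg19). How far each probe also binds the transcripts of its relatives was not tested.

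IL8, the best known of the neutrophil attractants, was near the detection limit. Control cells gave a raw signal of 56.2 and 54.5 over a local background of 49.5 and 42, and neither array was well above background. In shRNA cells the raw signal was 168 and 271, well above background on both arrays. The normalized levels were 6.02 and 6.22 against 7.69 and 8.39. Both shRNA arrays lay above both control arrays, as they did for 42.1% of the genes tested. Since IL8 entered only through the shRNA arrays, this order and the test that follows were tied to its entry. The fitted difference was 1.92 (SE 0.216, 95% interval 1.40 to 2.44), or 3.79-fold (adjusted p = 0.00029 by limma). A lower bound was sought by raising each control level to the dimmest level that counts as well above background, where that was higher. That dimmest level was 5.65 on both control arrays, below the probe's own levels, so the bound equals the fitted value and is no separate minimum. The fitted increase was 2.07-fold when the background model was fitted on all spots and 6.46-fold with a smaller offset. With the scanner's processed signal scaled to the 75th percentile the fitted log2 difference was 5.58. The probe lies at chr4:74609265-74609324 (hg19, plus strand).

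CXCL5 did not follow the GRO genes, and CXCL6 was not measured. CXCL5 was at 8.21 and 8.44 in control and at 8.13 and 8.25 in shRNA cells. The groups overlapped, and the difference was -0.14 (SE 0.1, adjusted p = 0.27 by limma). Its 95% interval, -0.38 to 0.10, leaves out an increase of the size seen for any of CXCL1, CXCL2 and CXCL3. CXCL5 (chr4:74861898-74861957, hg19, minus strand) was well above background on all 4 arrays, with raw signals of 359 and 332 in control and 236 and 246 in shRNA cells. CXCL6 (chr4:74703368-74703427, hg19, plus strand) had raw signals of 53.3 and 47.6 in control and 49.0 and 53.8 in shRNA cells, at the level of the local background in both groups. A change in CXCL6 was not detectable on these arrays.

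**Figure D2:**
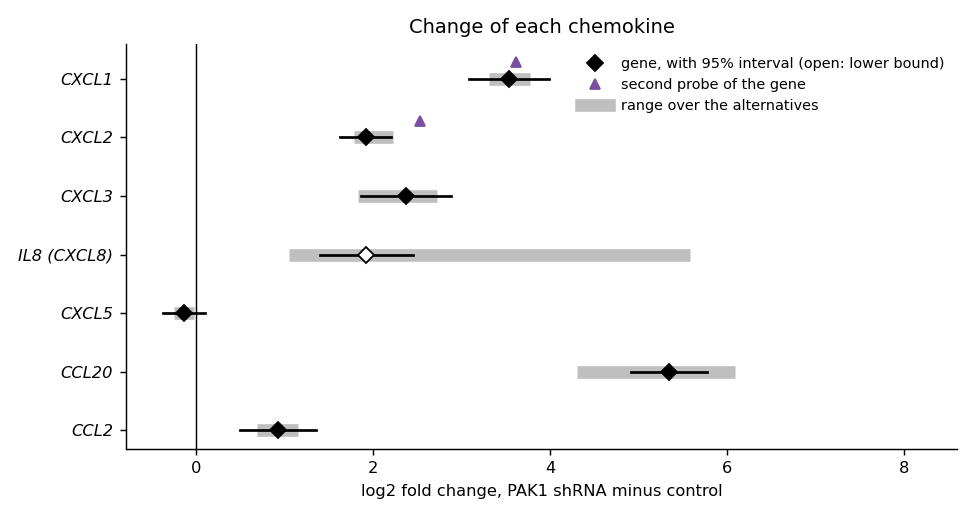
Change of each tested chemokine on the log2 scale, PAK1 shRNA minus control (horizontal axis). Diamonds give the fitted value with its 95% interval. The open diamond of IL8, labelled a lower bound, is also the fitted value, with control arrays not well above background. Triangles give the second probes of CXCL1 and CXCL2, and grey bars span the values under the other ways of processing. CCL20 changed by 5.34 and CXCL5 by -0.14.

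CCL20, the ligand of CCR6, had the largest difference of the 6 tested genes measured in both groups, IL8 being near background in control cells. It was at 7.35 and 7.61 in control cells and at 12.56 and 13.09 in shRNA cells. The raw signal went from 190 and 177 to 5062 and 7372, with all 4 arrays well above background. The difference was 5.34 (SE 0.178, 95% interval 4.91 to 5.77), or 40.6-fold (adjusted p = 1.8e-06 by limma), and it ranked 46 among all genes tested by the size of its increase. Because the control signal was low, its size varied with the background treatment, between 4.30 with the background model fitted on all spots and 6.09 with scaling to the 75th percentile. The annotation places its probe at chr2:228681100-228681836 (hg19, plus strand), a span longer than the probe.

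CCL2, the monocyte attractant, rose least. It was at 10.72 and 11.09 in control cells and at 11.59 and 12.05 in shRNA cells, and the groups did not overlap. The difference was 0.92 (SE 0.179, 95% interval 0.49 to 1.35), a 1.89-fold increase (adjusted p = 0.0039 by limma). The raw signals were closer, at 2307 and 2327 against 2596 and 3559, since the control arrays were brighter as a whole, with a median spot signal of 501 and 384 against 326 and 319. The control arrays differed from each other by 0.37 for CCL2, more than for 96.4% of the genes tested, and the shRNA arrays by 0.46, more than for 98.6%. By the unpaired t-test that the methods name for other experiments, which takes each gene's spread alone, neither CCL2 nor CXCL3 and IL8 passed after adjustment.

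The array carries 10 spots of the CCL2 probe (chr17:32584050-32584109, hg19, plus strand), so the spread within an array can be set beside that between arrays. Over these spots the level ran from 10.42 to 11.01 with a median of 10.66 on the first control array and from 10.82 to 11.34 with a median of 11.06 on the second. It ran from 11.33 to 11.86 (median 11.57) and from 11.77 to 12.30 (median 12.02) on the shRNA arrays. Single spots of a control and a shRNA array could thus overlap, but the difference between groups at each of the 10 positions lay between 0.87 and 0.96. At each position the second array of either group was also above the first. Spots of an array share its RNA, and their number adds no replicate.

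**Figure D3:**
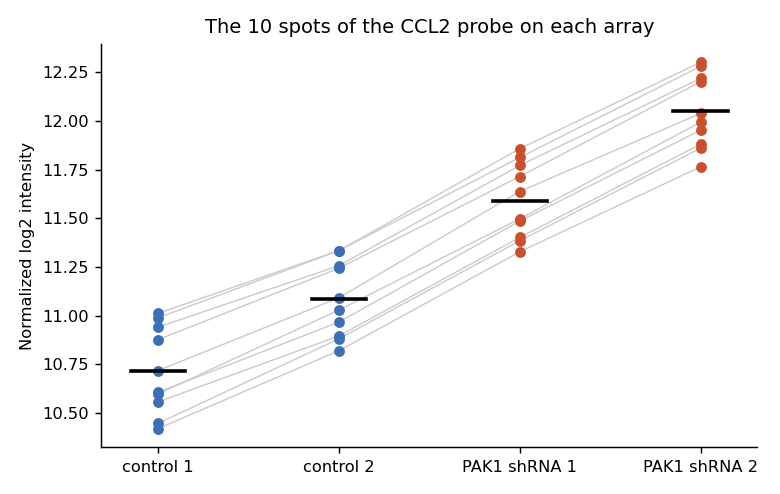
Normalized log2 signal (vertical axis) of the 10 CCL2 spots on each of the 4 arrays. Each point is a spot, grey lines join spots at the same position, and black bars are means. The control medians are 10.66 and 11.06, and the shRNA medians, 11.57 and 12.02, lie above both.

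The array-to-array spread of most of these chemokines was wider than that of most genes. The shRNA arrays differed by 0.46 for CXCL1, 0.70 for CXCL3, 0.71 for IL8 and 0.53 for CCL20, where the median absolute difference over all genes tested was 0.082. The control arrays differed by 0.42 for CXCL1, 0.26 for CXCL2, 0.25 for CCL20, 0.20 for IL8 and 0.14 for CXCL3, where the median was 0.094. In both groups the array numbered 2 was the higher for 7 of the 7 tested chemokines. Over all genes tested the median of array 2 minus array 1 was -0.011 in shRNA and -0.00046 in control cells. The share of all genes with this order in both groups was not counted. For CXCL5 both gaps, 0.23 and 0.12, were larger than or close to its difference between groups.

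Of the 8 genes, 6 lie in the CXC chemokine cluster of chromosome 4, and their changes did not run evenly along it. In the RefSeq order the cluster reads IL8, CXCL6, PF4V1, CXCL1, PF4, PPBP, CXCL5, CXCL3 and CXCL2. CXCL5, which did not pass, stands between PPBP and CXCL3, which rose. PF4, a platelet chemokine beside CXCL1, was at a mean of 6.93 in control and 7.39 in shRNA cells, a difference of 0.46 (SE 0.085, adjusted p = 0.003 by limma). PF4V1 was not well above background on any array, and PPBP on 1 control array only, so neither was tested.

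**Figure D4:**
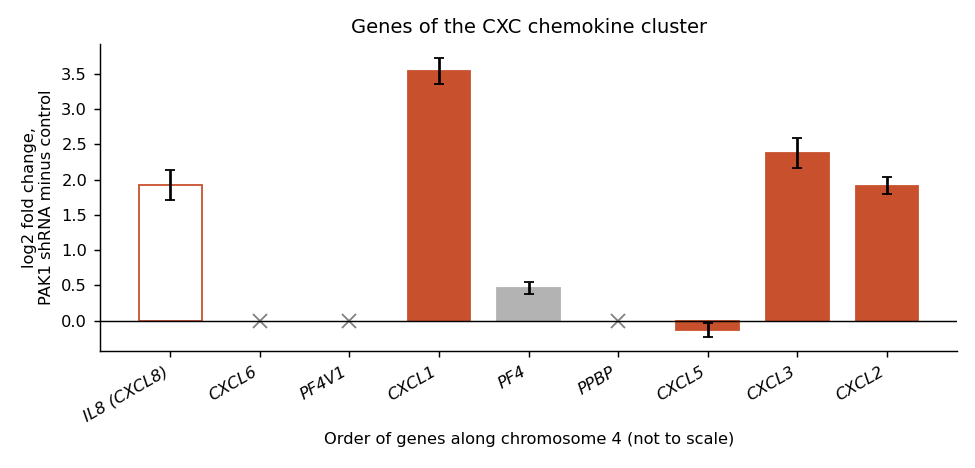
Change on the log2 scale (vertical axis, PAK1 shRNA minus control) of the genes of the CXC chemokine cluster in their order along chromosome 4, not to scale. Error bars are standard errors, crosses are genes that were not tested, and the grey bar is PF4, which is not among the 8 genes. The open bar is IL8, whose control arrays were not well above background. CXCL1, CXCL3 and CXCL2 stand at 3.54, 2.37 and 1.91 with CXCL5 at -0.14 among them.

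Because several of these genes rose together, with CXCL5 of the same cluster not passing, the 150 bases before their transcription starts are shown, as RefSeq gives them for GRCh38.p14. A sequence was found for 7 of the 8 genes, all but CCL2. They run 5′ to 3′ on the coding strand, and capitals mark the matches to the NF-kB sites that were searched. The windows are chr4:73869243-73869392 for CXCL1 (plus strand), chr4:74099196-74099345 for CXCL2 (minus), chr4:74038690-74038839 for CXCL3 (minus), chr4:73998678-73998827 for CXCL5 (minus), chr4:73836528-73836677 for CXCL6 (plus), chr4:73740419-73740568 for IL8 (plus) and chr2:227813692-227813841 for CCL20 (plus).
CXCL1: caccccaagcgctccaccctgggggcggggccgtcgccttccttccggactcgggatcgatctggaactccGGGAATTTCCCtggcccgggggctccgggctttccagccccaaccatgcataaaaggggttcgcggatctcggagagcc
CXCL2: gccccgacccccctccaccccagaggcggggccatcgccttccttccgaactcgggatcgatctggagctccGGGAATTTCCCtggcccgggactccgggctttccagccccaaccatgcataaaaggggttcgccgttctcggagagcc
CXCL3: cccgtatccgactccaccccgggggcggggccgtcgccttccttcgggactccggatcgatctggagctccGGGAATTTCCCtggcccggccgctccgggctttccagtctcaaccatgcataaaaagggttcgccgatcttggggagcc
CXCL5: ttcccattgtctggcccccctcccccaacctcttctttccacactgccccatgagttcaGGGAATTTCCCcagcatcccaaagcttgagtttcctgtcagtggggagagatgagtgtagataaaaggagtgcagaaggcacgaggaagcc
CXCL6: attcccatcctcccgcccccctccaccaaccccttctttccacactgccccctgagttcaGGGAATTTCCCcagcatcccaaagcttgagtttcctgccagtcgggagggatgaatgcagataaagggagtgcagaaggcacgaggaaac
IL8: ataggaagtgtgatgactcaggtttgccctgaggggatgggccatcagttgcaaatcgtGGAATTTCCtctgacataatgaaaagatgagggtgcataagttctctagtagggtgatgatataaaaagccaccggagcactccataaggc
CCL20: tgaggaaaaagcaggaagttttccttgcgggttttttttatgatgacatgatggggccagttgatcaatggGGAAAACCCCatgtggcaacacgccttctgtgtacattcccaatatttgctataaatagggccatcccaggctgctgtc
The letters GGAATTTCC, a core that NF-kB subunits are known to bind, were searched on both strands and found in 6 of the 7 windows, all but that of CCL20, while 0.253% of 35116 promoter windows of this length hold them. They start 77 or 78 bases before the start in CXCL1, CXCL2 and CXCL3, and 89 to 91 bases before it in CXCL5, CXCL6 and IL8. The longer NF-kB consensus motif, which overlaps that core in the CXC genes, was found in 6 of the 7, all but IL8, and in 3.15% of all windows. In CCL20 it lies on the opposite strand, 79 to 70 bases before the start. CXCL5, which did not pass, holds the same letters as CXCL1, CXCL2, CXCL3 and IL8, which rose. The AP-1 letters TGANTCA were found in IL8 alone (4.17% of all windows), TATAAA in IL8 and CCL20 (6.71%), and the core of the interferon-stimulated response element in 0 of the 7 (1.74%). Over the 250 bases before the start, the promoters of CXCL1, CXCL2 and CXCL3 shared 70.4% to 81.4% of aligned bases and those of CXCL5 and CXCL6 85.3%, against 42.0% to 51.5% for all other pairs. A match to letters is a description and shows no binding.

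Chemokine receptors and binding proteins, not all of them known to act on the ligands followed here, were mostly measured at modest differences. Of 10 such genes 9 were tested, with 6 higher, 2 lower and 1 that did not pass. Over all genes tested 31% were higher and 31.9% lower. The median log2 difference was 0.37 beside 0.02 over all genes tested. This list and those below were chosen with earlier results of these data known. CXCR1 was at 6.97 and 7.03 in control and 7.39 and 7.36 in shRNA cells, and CXCR2 at 6.57 and 6.63 against 7.04 and 7.14. Both neutrophil receptors thus rose slightly, by 0.37 and 0.49 (adjusted p = 0.0041 and 0.0015 by limma). Their levels are low, as the dimmest level that counts as well above background was 5.65 to 6.17 over the arrays. CCR2, the receptor of CCL2, was not well above background on both arrays of either group and was not tested. CCR6, the receptor of CCL20, was at 10.34 and 9.64 in control and 10.53 and 10.77 in shRNA cells, a difference of 0.66 (SE 0.22, adjusted p = 0.037) that passed in only 8 of 16 other ways of processing. The largest rises were those of SDC4 (2.03, adjusted p = 8.6e-05 by limma) and of CCRL2, an atypical receptor (1.74, adjusted p = 2.3e-05). SDC4 is a heparan sulfate proteoglycan that binds chemokines at the cell surface. CCRL2, like IL8, was measured above background on the shRNA arrays only, so it could be counted in no other direction. ACKR3, named CXCR7 on the array, a scavenging receptor of CXCL12, fell from 9.53 and 9.23 to 6.86 and 6.83, by 2.53 (adjusted p = 5.0e-06). SDC1, another proteoglycan, fell by 0.46 (adjusted p = 0.0022).

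Genes that induce chemokines or control their mRNAs were higher more often than lower. Of 30 such genes 28 were tested, with 22 higher, 3 lower and 3 that did not pass. Over all genes these shares were 31% higher and 31.9% lower. The median of the list was 0.86. TLR3, the endosomal sensor of double-stranded RNA, rose from 11.94 and 11.81 to 15.27 and 15.31, by 3.41 (adjusted p = 5.4e-07 by limma). NFKBIZ, a nuclear co-activator of NF-kB, rose by 3.22 (adjusted p = 7.8e-06) and MYD88, the adaptor of Toll-like and interleukin 1 receptors, by 3.1 (adjusted p = 1.0e-06). ELAVL1, which encodes HuR, a protein that stabilizes mRNAs with AU-rich elements, fell by 1.39 (adjusted p = 1.2e-05), the immediate early gene EGR1 fell by 0.94 (adjusted p = 0.00014) and the interleukin 1 receptor kinase IRAK1 fell by 0.45 (adjusted p = 0.0015). TNF was not tested, because its spot on the first control array was marked as not uniform. It was at 7.29 on the second control array and at 11.40 and 12.08 on the shRNA arrays.

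The next list held growth factors of myeloid cells and alarmins, and also complement, acute-phase and adhesion genes. Of its 18 genes 17 were tested, with 12 higher, 4 lower and 1 that did not pass. The median was 1.69, and over all genes 31% were higher and 31.9% lower. IL6 rose from 8.12 and 8.43 to 14.82 and 15.64, by 6.95 (adjusted p = 2.5e-06 by limma). CSF3, the growth factor of neutrophils, rose from 9.13 and 9.68 to 13.99 and 14.78, by 4.98 (adjusted p = 1.3e-05). CFB, complement factor B, rose by 4.75 (adjusted p = 2.6e-06). S100A9 and S100A12, calcium-binding alarmins known from neutrophils, went the other way, as S100A9 fell by 1.96 and S100A12 fell by 1.22 (adjusted p = 2.8e-05 and 3.1e-05), and IL11 fell by 1.15 (adjusted p = 5.2e-05). Of the 38 other chemokine ligands looked for, 26 were tested, with 16 higher, 1 lower and 9 that did not pass. Their median was 0.64, and the same shares over all genes, 31% and 31.9%, stand beside these counts. The largest rises were those of T cell attractants, with CXCL10 up by 11.17, CXCL11 by 9.67 and CCL5 by 7.83 (adjusted p = 3.2e-07, 4.3e-07 and 1.7e-06 by limma). CXCL11 was well above background on no control array and CCL5 on 1, and with CXCL9 and CCL8 they make 4 of the 16 that were tested only through the shRNA arrays and could not have been counted as lower. Of the myeloid factors that holds for 1, CSF2. CXCL14, an epithelial chemokine, fell by 2.59 (adjusted p = 1.2e-05). CCL7 and CCL8, which like CCL2 attract monocytes, were picked for this after their values were seen. They were higher by 1.61 and 1.86 (adjusted p = 0.00027 and 0.00017 by limma).

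**Figure D5:**
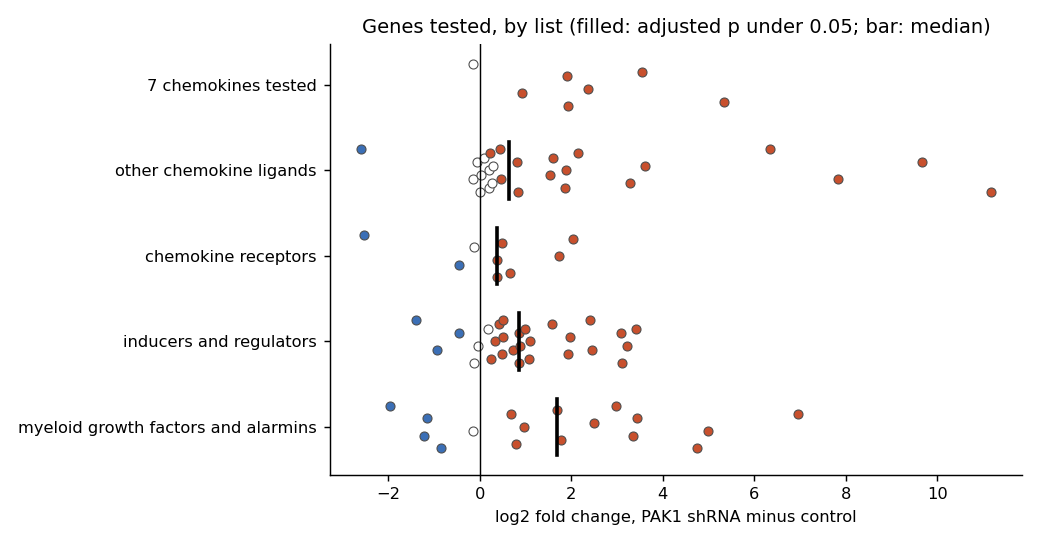
Log2 change (horizontal axis, PAK1 shRNA minus control) of every tested gene of each list and of the 7 tested chemokines, with a point per gene, filled where it passed the threshold, and a bar at the median of each list. The medians are 0.64 for other chemokine ligands, 0.37 for receptors, 0.86 for inducers and regulators and 1.69 for myeloid growth factors and alarmins. The last list also holds complement, acute-phase and adhesion genes. Genes lie on both sides of 0 in each of these lists.

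The genes whose profile over the 4 arrays was nearest to the mean profile of the 7 tested chemokines were FGF2, SPINK6, RFTN1, BAMBI and SLC6A14, by the root mean square distance of centred log2 levels. That distance was 0.032 for FGF2 and between 0.068 and 0.082 for the others, and their differences between groups, 2.18 to 2.34, lay close to the mean of 2.27 of the chemokines. With 4 arrays in 2 groups, such likeness is mostly likeness in the size of the difference between groups.

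The cells were checked against markers. All 10 markers of basal breast epithelium were well above background on all 4 arrays, with a summed level of 19.62 to 19.77 in control and 19.86 to 19.90 in shRNA cells. The sum hides opposite changes, since KRT5 fell by 1.14, TP63 fell by 1.13, KRT14 fell by 0.95, KRT17 fell by 0.72 and EGFR fell by 0.55. LAMB3 rose by 1.34, CDH3 by 0.90 and KRT6A by 0.31, and SFN and ITGB4 did not pass. Leukocytes are a known source of chemokines, and 8 of their markers are given, while LYZ and FCGR3B matched no probe by name. All 8 passed the scanner's background test on all 4 arrays, at a summed level of 14.35 to 14.42 in control and 15.72 to 15.85 in shRNA cells. Most of that sum is CD14, at a mean of 14.18 in control and 15.5 in shRNA cells. MPO, ELANE and CD3E were low, with control means of 6.51, 6.54 and 7.04. The dimmest level that counts as well above background was 5.65 to 6.17 over the arrays. CD14 and CD68, which other cells also express, were higher by 1.32 and 3.75, as were CSF1R by 0.66 and ITGAM by 0.46, whereas PTPRC, the common leukocyte antigen, was at a mean of 7.72 and 7.84 and did not pass (adjusted p = 0.22 by limma), nor did MPO, ELANE and CD3E. Of 9 fibroblast or endothelial markers, COL1A2 and COL3A1 were on no array well above background, and the summed level was 12.32 to 12.50 in control and 13.09 to 13.13 in shRNA cells. LUM rose by 1.79, DCN by 0.88, COL1A1 by 0.87 and VWF by 0.37, whereas PECAM1 fell by 1.56 and PDGFRB fell by 0.58, and CDH5 did not pass. The part of other cells in the chemokine differences was not tested.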

How the data were processed

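The 4 human arrays were analysed, and the mouse arrays of the study were not analysed here. Samples were grouped by their labels. A mention of tumors in the series' own text was set aside, since labels and methods both give the cell line. Spot intensities were deposited in the form written by Agilent Feature Extraction (9.5.3.1 in the file headers), not normalized between arrays. Also deposited was a table of log2 values that the authors had processed, used as an alternative. Its column medians are 9.40 to 9.42, and for 24302 probes each column lay nearest to the present values of its own array (median absolute difference 0.031 to 0.042), which sets its log2 scale and shows no centring of genes. Intensities were background corrected with normexp (offset 50), fitted without spots whose local background the scanner software marked as an outlier, and quantile normalized in limma 3.58.1 under R 4.3.3. Control spots and outlier spots were left out and spots of a probe averaged. A probe entered where 1 group or both had it well above background on 2 arrays, and of several probes of a gene the brightest on average was taken. Groups were compared with limma's moderated test and Benjamini-Hochberg adjustment at 0.05. The number of arrays limits the precision.

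The text names all 8 chemokines at every probe, PAK1, up to 3 rises and 3 falls of largest size past the threshold in each gene list, and the 5 genes of nearest profile. Outside this rule, the receptors CXCR1, CXCR2 and CCR2, the cluster genes PF4, PF4V1 and PPBP, and TNF, CCL7, CCL8, CXCL9 and CSF2 were chosen after their values were seen. Cell type markers came from lists of their own. The members and lists were chosen with earlier results of these data known. Coordinates of probes are those of the annotation in the files (hg19), those of promoters are GRCh38.p14, and names of genes follow the array's design. Alternatives were the normexp fit, its offset, no background correction, other scalings, the authors' values, other probe filters and rules, the replicate block, a plain t-test and leaving out each array. The scripts were tested on simulated data. A further leukocyte marker of the list is not reported here.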

Additional observations from a re-analysis of the deposited data

How the results depend on the processing

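CXCL1, CXCL2 and CCL20 passed the threshold and kept their direction in each of the 16 alternatives, with log2 differences of 3.31 to 3.77, 1.78 to 2.22 and 4.30 to 6.09, and CXCL5 passed in none, at -0.25 to -0.02. With the methods' t-test in place of limma's, CXCL3 (2.37, adjusted p = 0.051), IL8 (1.92, adjusted p = 0.070) and CCL2 (0.92, adjusted p = 0.14) no longer passed, and 3 of the chemokines, 4370 genes in all and 10 of the other chemokine ligands were higher. That test takes each gene's spread from its own 4 arrays, and it called 12116 genes before and 9134 after adjustment. A change of at least 2-fold left 1947 genes higher and 1971 lower. Leaving out an array, 1 to 2 of the other chemokine ligands were lower (2 without the first control array), CXCL3 ranged from 2.02 to 2.72, CCL2 from 0.69 to 1.15 and IL8 from 1.57 to 2.28. CCR6 was at 0.30 without the second control array and 1.01 without the first. Scaling to the 75th percentile and centring on the median moved the median of all genes to 0.12 and 0.14. Among genes near background in control cells, CXCL10 ranged from 9.62 to 13.50. The lowest value came with the background model fitted on all spots and the highest with scaling to the 75th percentile. This also held for CXCL11 (7.93 to 13.06), CCL5 (6.19 to 10.35) and CCRL2 (0.93 to 4.99).

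Over all genes, arrays of the same number did not deviate together (r = 0.01 across 22001 genes, which are not independent). This does not settle whether the numbers pair the arrays. For 7 of the 7 tested chemokines the array numbered 2 was the higher in both groups, but the share of all genes with this order was not counted. With the number as a replicate block, 6973 genes were higher and 7070 lower, the 6 chemokines passed, and the differences were the same, such as 3.54 for CXCL1, 1.91 for CXCL2, 5.34 for CCL20 and -0.14 for CXCL5. The SE of each tested chemokine was smaller with the block, such as 0.084 against 0.187 for CXCL1 and 0.097 against 0.178 for CCL20. Depth of signal limits IL8, which no control array measured, and CXCL6, which no array measured.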
